A study of Mus musculus with 6 samples.

Results

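Potassium channels that open when calcium or sodium builds up inside a cell turn the ion load of activity into a brake on firing. The genes described here are 6 of the 32531 gene symbols in the count files: the SK channel genes Kcnn1, Kcnn2 and Kcnn3, the BK channel gene Kcnma1 with its subunit gene Kcnmb4, and the sodium-activated channel gene Kcnt1. They were taken by symbol, all 6 are in the files, and all 6 had enough reads to be tested. The question the design poses is which of their transcripts were more or less abundant in RNA bound to tagged ribosomes than in the tissue's RNA.

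The samples came from cerebral cortex of adult, untreated mice of the line Htr4-EGFP/Rpl10a (ES1299), and both groups share that transgene. In this line, ribosomal protein Rpl10a fused to EGFP is placed under the gene of serotonin receptor 4 (Htr4), so ribosomes are tagged in cells where that transgene is active. Ribosome-bound RNA captured with antibodies to EGFP made 3 libraries, called IP here, and 3 libraries labelled input are the reference. The age in weeks, the sex and whether a library held 1 animal or a pool were not stated in the labels. Nothing states that replicates came from separate animals, so p-values measure only the spread between these libraries, which may be technical.

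SK channels have no voltage sensor of their own: calmodulin is bound to each subunit and opens the pore when it takes up calcium, giving a hyperpolarisation that follows action potentials. BK channels need calcium and depolarisation together and help end the action potential, and the beta4 subunit encoded by Kcnmb4 is their main brain partner, known for slowing their gating. The channel encoded by Kcnt1, also called Slack, is opened by intracellular sodium and shapes adaptation during sustained firing.

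The pore is what these channel genes share, and the stretch of coding sequence that holds it shows how far the SK genes resemble each other and how far the BK and Slack genes stand from them. Each line gives 72 bases of the coding strand, 5′ to 3′, from a GENCODE M21 transcript (GRCm38). Capitals mark a run of 4 codons at the potassium selectivity filter, for glycine, tyrosine or phenylalanine, glycine and aspartate. They are not the whole filter.
Kcnn1: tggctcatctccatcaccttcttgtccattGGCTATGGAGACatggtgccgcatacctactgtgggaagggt
Kcnn3: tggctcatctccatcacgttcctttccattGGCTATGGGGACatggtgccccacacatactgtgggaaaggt
Kcnma1: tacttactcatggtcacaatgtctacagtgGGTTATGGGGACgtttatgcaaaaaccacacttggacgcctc
Kcnt1: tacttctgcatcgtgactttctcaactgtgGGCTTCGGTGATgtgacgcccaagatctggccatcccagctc
The capitals begin at base 1117 of the coding sequence in Kcnn1, 1528 in Kcnn3, 1060 in Kcnma1 and 889 in Kcnt1. Kcnn1 and Kcnn3 differ at 8 of the 72 bases (88.9% the same), whereas Kcnn1 shares 43.1% with Kcnma1 and 45.8% with Kcnt1. The second codon in capitals encodes tyrosine in the SK and BK genes printed and phenylalanine in Kcnt1. Kcnmb4 encodes a subunit with no pore and holds no such run of codons.

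Resemblance of this kind matters for counting, because reads that fit several genes are not assigned to any. No window of 50 bases in the longest coding transcripts of Kcnn1, Kcnn3 and Kcnt1 recurred exactly in a transcript of another gene. In Kcnn2, 14.2% of windows were shared with the antisense gene A330093E20Rik and a pseudogene on the opposite strand, and in Kcnma1 6.94% with 4930519K11Rik. In Kcnmb4, 72.2% of windows were shared with the antisense genes Kcnmb4os1 and Kcnmb4os2. No source used here gives the strand setting of the counting, so reads of Kcnmb4 and of its antisense partners may have been exchanged or left out. Kcnmb4os2 itself was covered by 43 to 83 reads in the inputs and 79 to 111 in the IPs, against 631 to 1184 for Kcnmb4.

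Libraries held 37696125 to 52360452 reads on genes in input and 53147173 to 67559533 in IP, which puts 3 reads at 0.0444 to 0.0796 CPM (reads scaled to a common library total). Markers of cortical excitatory neurons summed to 3724 to 4266 CPM in input and 3992 to 5542 in IP, which shows the markers of the labelled tissue in both groups. Htr4 rose from 7.88 ± 0.265 to 19.9 ± 2.36 CPM (SD, n = 3; adjusted p = 5.7e-05 in edgeR). Astrocyte markers summed to 3849 to 4448 CPM in input and 811 to 994 in IP, oligodendrocyte markers to 1239 to 1380 and 142 to 164, and microglial markers to 37.9 to 43.6 and 1.51 to 2.96. All 7, 6 and 5 genes of these lists fell. Layer 5 pyramidal tract markers summed to 222 to 253 CPM in input and 518 to 557 in IP, and all 4 rose. Striatal projection neuron markers summed to 291 to 358 CPM in input and 783 to 1076 in IP, with 6 of 7 higher and 1 lower, and interneuron markers to 967 to 1090 and 1169 to 1708, with 3 of 7 higher. Layer 2/3 markers summed to 257 to 314 CPM in input and 164 to 194 in IP, and all 3 fell. Of 3 layer 4 markers, Rorb fell from 322 to 34.9 CPM and Rspo1 from 10.9 to 4.98, whereas Scnn1a had 3.74 and 7.44 CPM and did not pass. In bulk RNA, fewer cells of a type and less RNA per cell cannot be told apart. IP also differs from input both in the cells tagged and in the RNA fraction, ribosome-bound against tissue RNA. Those 2 differences cannot be told apart either. The part of these shifts in cell make-up in the channel results was not tested.

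Of the 6 channel genes, 2 fell in IP and 0 rose: Kcnn3, the SK3 gene, by 1.57-fold and Kcnt1, the Slack gene, by 1.44-fold (quasi-likelihood test of edgeR, Benjamini-Hochberg adjustment over 16506 genes, threshold 0.05). Among all tested genes, 23.4% fell and 21.3% rose, 44.8% in all, so 2 calls in 6 genes is not more than the background. Before adjustment, edgeR's p was under 0.05 for 3 of the 6, all lower, the additional gene being Kcnma1, and DESeq2 called 3 lower and 0 higher. The share over all genes is not given here for these 2 counts, so neither is read as a result about the 6 genes. The median log2 fold change of the 6 genes was -0.21, against -0.02 over all tested genes. The groups did not overlap at Kcnn3, Kcnma1 and Kcnt1, with IP lower each time, where 29.5% of all tested genes did so, 26.5% had all IP libraries higher and 56.1% separated in either direction.

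**Figure D1:**
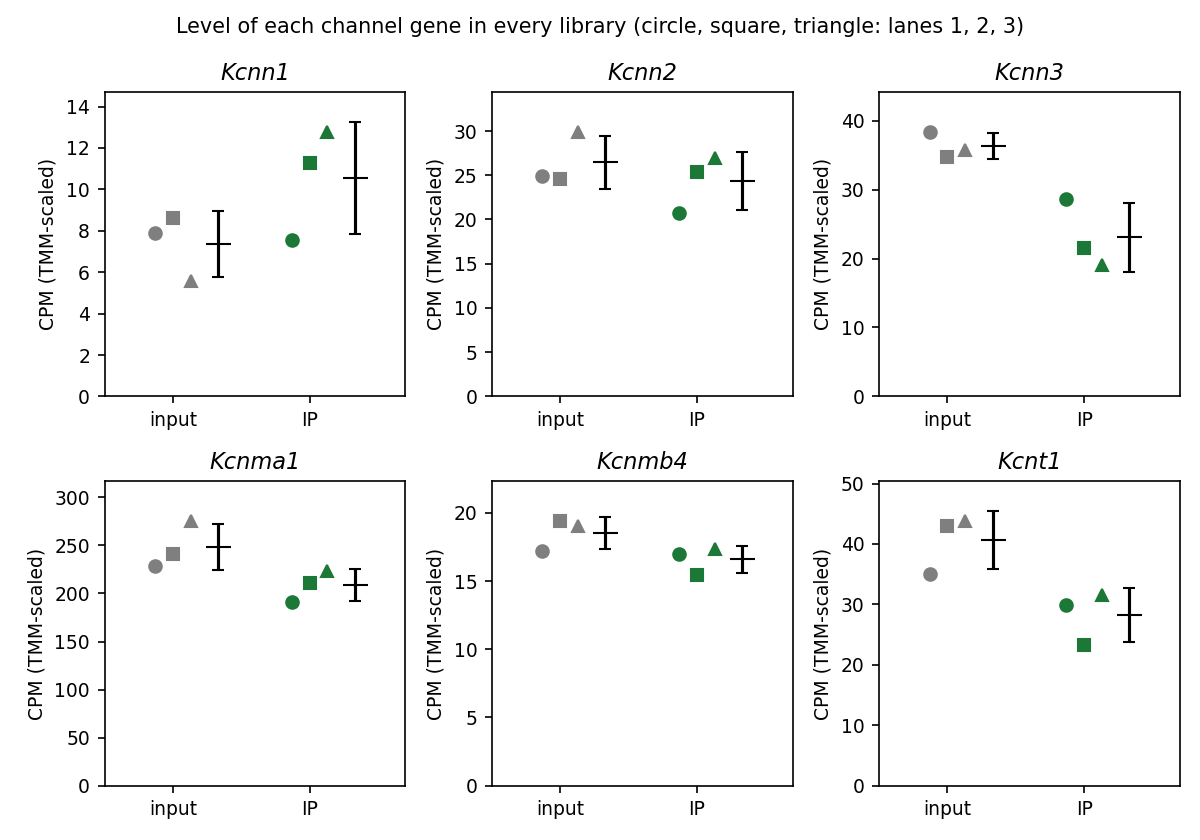
CPM scaled by TMM (a scaling between libraries) for each of the 6 genes in 3 input and 3 IP libraries, each panel with its own axis from 0; circles, squares and triangles are lanes 1, 2 and 3, and the bar at the right of each group is the mean ± SD. The 3 IP points of Kcnn3, Kcnma1 and Kcnt1 lie below all 3 input points, whereas in Kcnn1 the IP library of lane 1, at 7.57 CPM, lies among the inputs.

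Kcnn3 (chromosome 3, 89520164 to 89675132, plus strand, GRCm38) encodes SK3, the SK subunit also known from dopamine neurons. In replicate order, the inputs held 38.4, 34.8 and 35.8 CPM and the IP libraries 28.7, 21.5 and 19.1 CPM, from 1306 to 1750 reads per library. Inputs lay close together and every IP library was below them, with IP replicate 1 nearest to the inputs. The mean fell from 36.3 ± 1.87 CPM in input to 23.1 ± 4.98 in IP (log2 fold change -0.65, SE 0.16, adjusted p = 0.0051 in edgeR). Within lanes 1, 2 and 3 the log2 ratio was -0.41, -0.68 and -0.89. The call ended with an offset for exon length and GC content (log2 fold change -0.38, adjusted p = 0.069) and held with that offset and the replicate block together (log2 fold change -0.40, adjusted p = 0.035).

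Kcnn1 (chromosome 8, 70842049 to 70863258, minus strand) encodes SK1, and did not pass the test. It had 7.90, 8.60 and 5.57 CPM in the inputs and 7.57, 11.3 and 12.8 CPM in the IP libraries, in replicate order. IP replicates 2 and 3 were above every input, but IP replicate 1 was below input replicates 1 and 2, so the groups overlapped. Means were 7.36 ± 1.59 and 10.6 ± 2.69 CPM, and the log2 fold change was 0.52 (SE 0.24, 95% interval -0.01 to 1.05, adjusted p = 0.10 in edgeR). Without IP replicate 1 the gene was called higher (log2 fold change 0.72, adjusted p = 0.025). The adjusted p lay between 0.025 and 0.30 over the alternatives. That library had the highest IP sums of striatal markers, at 1076 CPM against 783 and 905 in IP replicates 2 and 3, and of interneuron markers, at 1708 CPM against 1169 and 1627. The part of those cells in the Kcnn1 values was not tested.

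Kcnn2 (chromosome 18, 45268860 to 45686024, plus strand) encodes SK2, a channel known from dendrites and spines of pyramidal cells. Its levels were 24.9, 24.5 and 29.9 CPM in input and 20.7, 25.4 and 26.9 CPM in IP, in replicate order. The ranges overlapped, and the log2 fold change of -0.12 (SE 0.15, adjusted p = 0.54 in edgeR) had a 95% interval from -0.44 to 0.20. Its antisense neighbour A330093E20Rik fell from 1.22 ± 0.482 to 0.184 ± 0.247 CPM, a level far under that of Kcnn2.

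Taken as a family, the reads of the 3 SK genes together came to 67.9 to 71.3 CPM in input and 57.0 to 58.9 CPM in IP. Kcnn3 gave 53.9%, 51.2% and 50.2% of these reads in the inputs and 50.3%, 36.9% and 32.5% in the IP libraries, in replicate order. Kcnn1 gave 11.1%, 12.7% and 7.81% in input and 13.3%, 19.4% and 21.7% in IP. IP replicate 1 had a mixture near that of the inputs, and in IP replicates 2 and 3 Kcnn2 had more reads than Kcnn3. The Kcnn1 share was 10.5% ± 2.48 in input and 18.1% ± 4.37 in IP with no overlap, and the Kcnn2 share was 37.7% ± 3.77 and 41.9% ± 4.93 with overlap. When reads were divided by exon length, Kcnn3 gave 42.1%, 39.2% and 39.6% in the inputs and 38.3%, 26.0% and 22.2% in the IP libraries, without overlap. On that scale Kcnn2 was ahead of Kcnn3 in all 3 IP libraries and also in input replicate 3, where it gave 46.4%. This order depends on the length used, here merged exons of 10.5 kb for Kcnn3 and 7.47 kb for Kcnn2. Their longest coding transcripts had 2884 and 3682 bases. Before division by length, Kcnn3 had more reads than Kcnn2 in IP replicate 1 and input replicate 3, and division by those transcripts does not change that.

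Ratios between genes within a library do not depend on scaling between libraries. They still carry the log2 trend on exon length and GC described below, 0.04 for Kcnn1, -0.11 for Kcnn2 and -0.31 for Kcnn3. The ratios were not computed with that trend taken out. For every 100 Kcnn3 reads there were 20.6, 24.7 and 15.6 Kcnn1 reads in input and 26.4, 52.6 and 66.8 in IP. Every IP value was above every input value, and the mean log2 ratio was -2.33 ± 0.34 in input and -1.14 ± 0.70 in IP, a difference of 1.18 (two-sided exact permutation p = 0.1, the smallest that 3 against 3 libraries allow). Kcnn1 to Kcnn2 also separated without overlap (difference of 0.63 in the log2 ratio, exact permutation p = 0.1), and Kcnn2 to Kcnn3 did not (0.55, exact permutation p = 0.2). Over the 5 gene pairs compared, the adjusted p was 0.25 for each of these, so none passed. Leaving out 1 library moved the Kcnn1 to Kcnn3 difference to between 0.90 (without IP replicate 3) and 1.57 (without IP replicate 1). The Kcnn1 to Kcnn2 difference was 0.35 without input replicate 3. The Kcnn2 to Kcnn3 difference was 0.35 without IP replicate 3 and 0.83 without IP replicate 1.

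**Figure D2:**
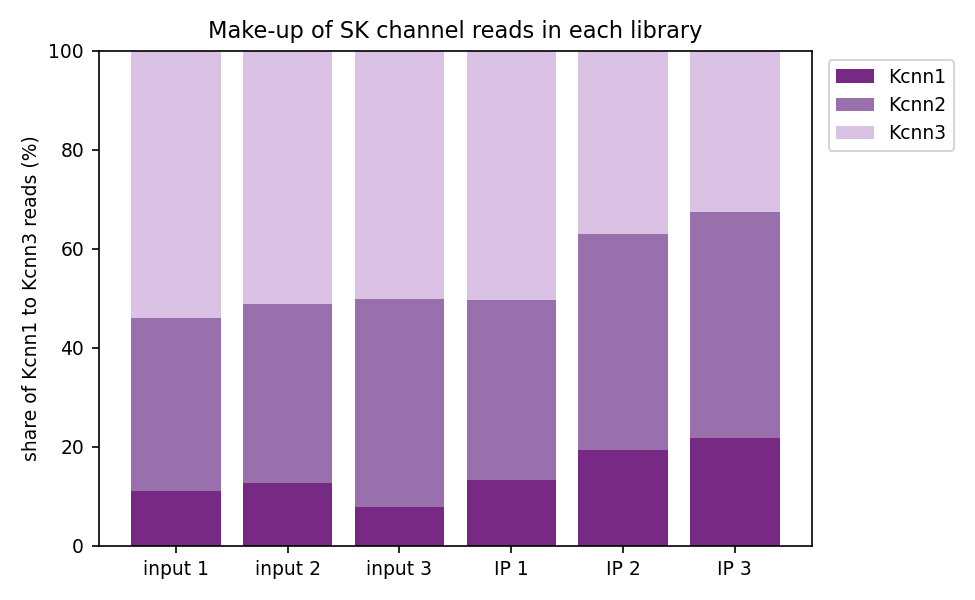
Share of Kcnn1, Kcnn2 and Kcnn3 among the reads of all 3 SK genes (%), as a stacked bar for each input and IP library. Kcnn3 fills 50.2% to 53.9% of the input bars and 32.5% of the IP 3 bar, whereas IP 1, at 50.3%, resembles the inputs.

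Kcnma1 (chromosome 14, 23289431 to 24014491, minus strand) encodes the BK channel pore and was the most abundant of the 6 genes. It had 229, 241 and 275 CPM in input and 191, 211 and 224 CPM in IP, in replicate order, from 8407 to 15270 reads. All IP libraries lay below all inputs, although the highest IP value and the lowest input value were close. The log2 fold change was -0.25 (SE 0.10, 95% interval -0.47 to -0.04), which missed the threshold in edgeR (adjusted p = 0.054). With the replicate block, which compares within lanes, it passed (adjusted p = 0.019), the ratios within lanes 1, 2 and 3 being -0.26, -0.19 and -0.30. The direction turned with the length and GC offset (log2 fold change 0.15, adjusted p = 0.23), and with library totals in place of TMM the groups overlapped.

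Kcnmb4 (chromosome 10, 116417861 to 116473878, minus strand), the gene of the neuronal beta4 subunit of BK channels, had 17.2, 19.4 and 19.0 CPM in input and 17.0, 15.5 and 17.3 CPM in IP. The groups overlapped, and the log2 fold change of -0.16 (SE 0.14, adjusted p = 0.39 in edgeR) had a 95% interval from -0.47 to 0.15. Set against its pore gene, there were 7.51, 8.05 and 6.91 Kcnmb4 reads per 100 Kcnma1 reads in input and 8.87, 7.34 and 7.75 in IP. The mean log2 ratio of subunit to pore reads was -3.74 ± 0.11 in input and -3.65 ± 0.14 in IP, a difference within the spread between libraries (0.09, exact permutation p = 0.5, adjusted p = 0.5). The log2 trend on exon length and GC, described below, was -0.44 for Kcnma1 and 0.07 for Kcnmb4. These values lie further apart than the difference in the ratio. The ratio was not computed with that trend taken out.

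Kcnt1 (chromosome 2, 25863734 to 25918273, plus strand) had 35.1, 42.9 and 43.8 CPM in input and 29.95, 23.2 and 31.5 CPM in IP, in replicate order. Every IP library was below every input, IP replicate 2 furthest. The mean of 40.6 ± 4.78 CPM in input fell to 28.2 ± 4.43 in IP (log2 fold change -0.52, SE 0.15, adjusted p = 0.012 in edgeR), and within lanes 1, 2 and 3 the log2 ratio was -0.23, -0.87 and -0.47. The call ended when input replicate 3 was left out (log2 fold change -0.45, adjusted p = 0.058) and under the length and GC offset (log2 fold change -0.38, adjusted p = 0.059). The log2 ratio of Kcnt1 to Kcnma1 reads was -2.70, -2.49 and -2.65 in input and -2.68, -3.18 and -2.83 in IP, so the groups overlapped (difference -0.28, exact permutation p = 0.2, adjusted p = 0.25), and the difference was -0.13 without IP replicate 2.

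Differences in exon length ran alongside these results, where length means the merged exons of all annotated transcripts of a gene. The exons of Kcnma1 span 17.0 kb in GENCODE M21, those of Kcnn3 10.5 kb and those of Kcnt1 9.50 kb, which are longer than in 98.4%, 91.4% and 88.7% of the tested genes with a length. Kcnn2 spans 7.47 kb, Kcnn1 4.59 kb and Kcnmb4 3.32 kb. The 3 genes whose IP libraries all lay below the inputs are thus the longest of the 6 by merged exons. This does not hold for single transcripts. The coding transcripts used for the windows above had 5881 bases in Kcnt1, 3753 in Kcnma1, 3682 in Kcnn2, 2964 in Kcnn1 and 2884 in Kcnn3. The trend of the log2 ratio on length and GC over all genes amounted to -0.44 for Kcnma1, -0.31 for Kcnn3 and -0.19 for Kcnt1, and to 0.04 for Kcnn1 and 0.07 for Kcnmb4. Whether that trend comes from the cells or from the libraries was not tested.

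**Figure D3:**
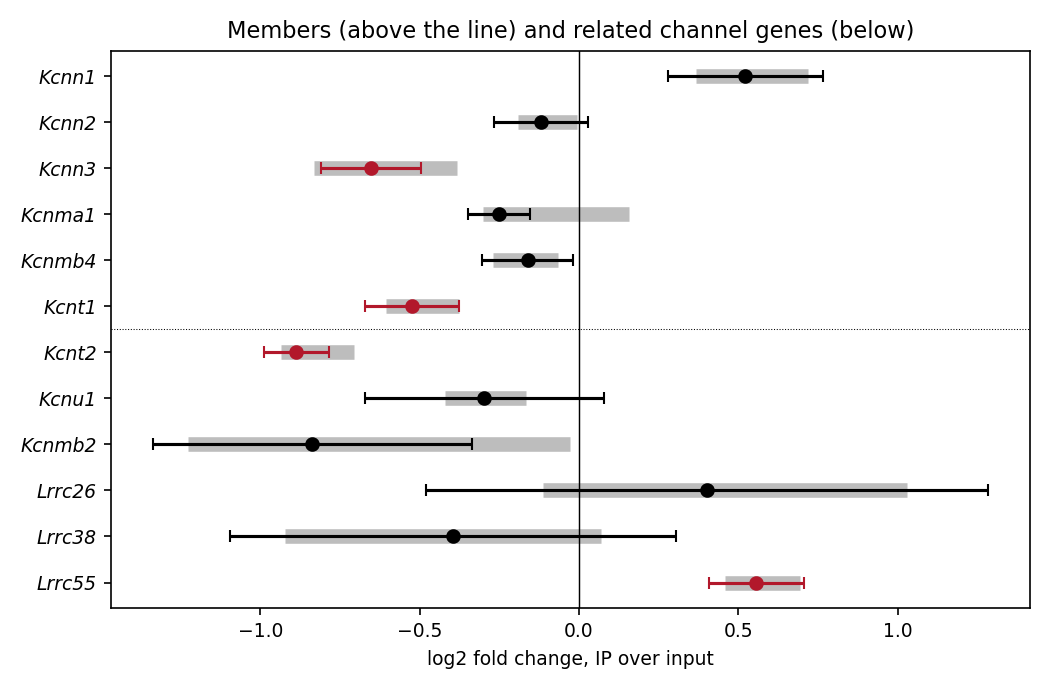
Log2 fold change of IP over input (points, bars ± SE) for the 6 genes above the dotted line and 6 tested related genes below it, red where the adjusted p is under 0.05 and black otherwise; grey bars span the value over all processing alternatives. Kcnn3, Kcnt1 and Kcnt2 are red to the left of 0 and Lrrc55 to the right, and the grey bar of Kcnma1 crosses 0.

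Levels of different genes can be set side by side only per length, here again that of the merged exons. On the scale of CPM per kb of exon, Kcnma1 stood at 14.6 ± 1.42 in input and 12.3 ± 0.956 in IP, and Kcnmb4 came next with 5.58 ± 0.359 and 4.99 ± 0.297, a value that carries the doubt about its antisense partners. These were the first and second of the 6 in every library. Below them in input came Kcnt1 at 4.27 ± 0.503, Kcnn2 at 3.54 ± 0.404 and Kcnn3 at 3.48 ± 0.179, whose ranges over libraries overlap from one to the next, and Kcnn1 was lowest at 1.60 ± 0.347. In IP, Kcnn2 stood at 3.26 ± 0.433, Kcnt1 at 2.97 ± 0.466, Kcnn1 at 2.30 ± 0.586 and Kcnn3 at 2.21 ± 0.477, again with overlap between neighbours. On this scale Kcnn3 was above Kcnn1 in every input library and below it in IP replicates 2 and 3. That crossing rests on the merged lengths, 10.5 kb for Kcnn3 and 4.59 kb for Kcnn1. Before division by length, Kcnn3 was above Kcnn1 in every library. Their coding transcripts had 2884 and 2964 bases, and division by those lengths keeps Kcnn3 above Kcnn1 throughout.

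Of 10 related channel and subunit genes, 6 could be tested, of which 1 rose and 1 fell, where 21.3% of all tested genes rose and 23.4% fell. Kcnt2, the gene of the second sodium-activated channel (Slick), fell from 81.7 ± 3.77 CPM in input to 44.2 ± 3.25 in IP (log2 fold change -0.89, SE 0.10, adjusted p = 3.8e-05 in edgeR). Its libraries held 80.2, 79.0 and 86.0 CPM in input and 45.5, 40.5 and 46.6 CPM in IP, so both sodium-activated channel genes were lower in IP. Lrrc55, which encodes a leucine-rich auxiliary protein of BK channels, rose from 28.4 ± 3.08 CPM in input to 41.8 ± 6.95 in IP (log2 fold change 0.56, SE 0.15, adjusted p = 0.0092), and its call was lost without input replicate 2 (adjusted p = 0.054). Of the other gamma subunit genes, Lrrc38 had 1.12 ± 0.445 and 0.853 ± 0.589 CPM, Lrrc26 had 3 to 20 reads per library, and Lrrc52 had 1 read in all.

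Other beta subunits were scarce. Kcnmb2, whose product inactivates BK channels, had 2.29, 2.92 and 8.33 CPM in input and 3.77, 2.39 and 1.45 CPM in IP (log2 fold change -0.84, SE 0.50, adjusted p = 0.20 in edgeR), input replicate 3 standing apart. Without that library the log2 fold change was -0.03. Kcnmb1, the beta subunit gene of smooth muscle, had 3, 15 and 11 input reads and 0 IP reads, at least 9.85-fold lower in IP by the lower end of the 95% counting interval of the ratio of summed reads. With 3 reads in the whole group standing for the zero, the ratio was 12.9. Endothelial and mural markers summed to 6.999 to 11.74 CPM in input and 1.247 to 1.699 in IP. Of 5 tested genes 4 were lower, and Tek was at 0 in IP. The tested gene that was not called was the smooth muscle gene Acta2 (adjusted p = 0.053 in edgeR). The part of endothelial and mural cells in the Kcnmb1 reads was not tested. Kcnmb3 had 2 reads in all, Kcnn4, the intermediate-conductance gene known from blood cells, 8 reads in 1 IP library, and the testis channel gene Kcnu1 2.42 ± 0.388 and 1.96 ± 0.331 CPM (adjusted p = 0.55).

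Genes whose products sit on these channels made the next list. Of its 10 genes, 7 were called higher and 1 lower, with a median log2 fold change of 0.46, where 21.3% of all tested genes rose and 23.4% fell (median -0.02). Calm2, a calmodulin gene, rose most, from 2164 ± 179 CPM in input to 6187 ± 687 in IP (log2 fold change 1.52, SE 0.10, adjusted p = 5.9e-07 in edgeR). It is counted with some doubt, since related copies can share reads. The SK complex also holds protein kinase CK2 and phosphatase 2A, which tune its calcium sensitivity. The CK2 gene Csnk2b and the phosphatase genes Ppp2ca, Ppp2cb and Ppp2r1a rose, while Csnk2a1 and Csnk2a2 had log2 fold changes of -0.10 and -0.08 and did not pass. Fmr1, whose product binds Slack, fell from 103 ± 9.62 to 70.8 ± 2.70 CPM (log2 fold change -0.54, adjusted p = 0.0011).

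Calcium for these channels enters through voltage-gated channels or leaves internal stores. The list holds 14 such genes, of which 6 were called lower and 1 higher, with a median log2 fold change of -0.21. The 7 calls in 14 genes are near the 44.8% called among all tested genes. Cacna1h, a T-type calcium channel gene, rose from 12.3 ± 0.515 to 25.8 ± 7.76 CPM (log2 fold change 1.07, adjusted p = 0.0014 in edgeR). The inositol trisphosphate receptor gene Itpr2 fell most, from 9.37 ± 1.03 to 1.44 ± 0.690 CPM (log2 fold change -2.70, adjusted p = 6.7e-05), and the ryanodine receptor genes Ryr1, Ryr2 and Ryr3 fell with log2 fold changes of -2.19, -0.72 and -1.29. The most abundant of the list, Itpr1, had 444 ± 57.8 and 388 ± 6.41 CPM (adjusted p = 0.12) and turned positive with the length and GC offset (log2 fold change 0.20). Of 5 sodium entry genes, the leak channel gene Nalcn rose from 83.4 ± 5.09 to 118 ± 9.21 CPM (log2 fold change 0.50, adjusted p = 0.0013) and Scn3a fell (log2 fold change -0.37, adjusted p = 0.011). Among all tested genes, 21.3% rose and 23.4% fell. The Scn3a call was lost when input replicate 3 was left out (adjusted p = 0.057) and under the length and GC offset (log2 fold change -0.04, adjusted p = 0.80). Scn8a, the most abundant, stood at 504 ± 47.8 in input and 544 ± 49.8 CPM in IP (adjusted p = 0.39 for a log2 fold change of 0.11) and was called higher with the length and GC offset (log2 fold change 0.45, adjusted p = 0.0028).

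**Figure D4:**
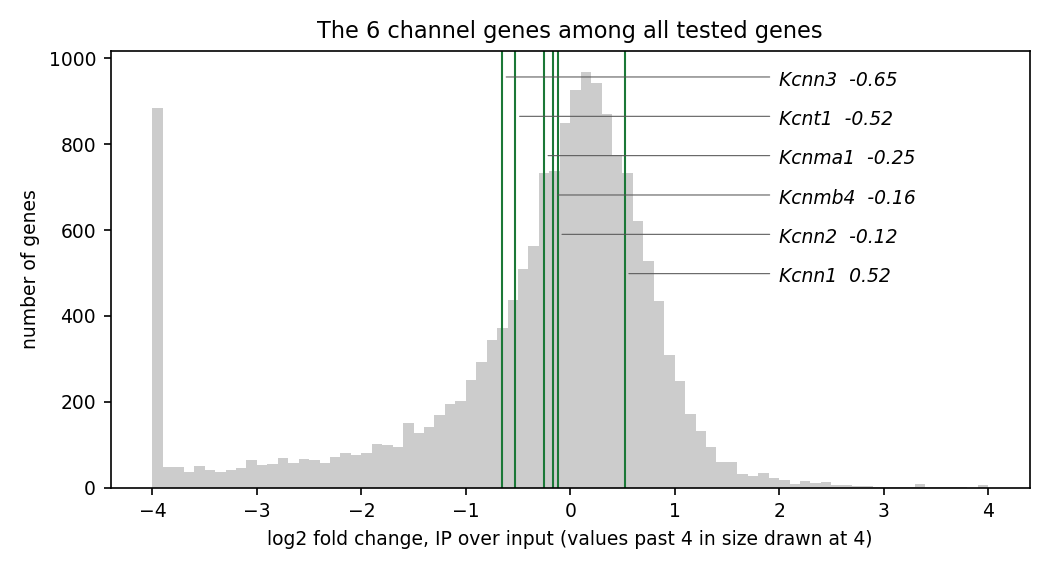
Number of tested genes (vertical axis) by log2 fold change of IP over input (horizontal axis, bins of 0.1, values past 4 in size drawn at 4), with green lines at the 6 channel genes. Kcnn3 at -0.65 and Kcnn1 at 0.52 are the outermost of the 6, and all lie within the bulk of the 16506 genes.

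Patterns over the 6 libraries were also compared with all named tested genes, as the root mean square difference of centred log2 CPM. Nearest to Kcnn3 were Tnfaip3 (0.063) and Sypl (0.069), and nearest to Kcnn1 were Elp6 (0.081) and Tmc3 (0.090). Kcnt1 was nearest to Nptx2 (0.058) and Ints7 (0.071). Kcnma1 had the closest neighbours, Apbb2 (0.027) and March6 (0.028), followed by Kcnmb4 with Ptchd1 (0.034) and Tti2 (0.035) and Kcnn2 with Trim66 (0.045) and Zfp874b (0.047). No member was among the 2 nearest genes of another member.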

How the data were processed

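Each deposited file is 1 library's raw read count per gene symbol, not normalized. The submitters' processing notes name STAR 2.0.0e, HTSeq and build mm10, while the annotation and strand setting were not given in the sources used here. HTSeq's summary rows did not enter totals or tests: reads outside genes were 16.7% to 18.1% of listed reads in input and 8.60% to 8.92% in IP, reads matching several genes 8.12% to 9.83% and 1.77% to 1.91%, reads aligned to several places 21.1% to 23.3% and 32.9% to 35.7%, and a row called unknown held at most 2 reads.

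The test was edgeR 4.0.16 (R 4.3.3) quasi-likelihood with TMM scaling, filterByExpr and a group term, two-sided, on all 16506 genes that passed, with Benjamini-Hochberg adjustment. It was also run on simulated data with few changed genes, balanced up and down. That run does not cover shifts as broad as those called here. CPM values use TMM-scaled totals, and log2 ratios by lane use CPM plus 0.5. Gene ratios use reads plus 0.5. Intervals cover 95%, and those on reads cover counting error only.

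Replicate numbers equal the sequencing lane in both groups, per the labels. Deviations of same-numbered libraries correlated at 0.125, 0.086 and 0.047 and those of others at -0.083 to 0.007, so a replicate block by lane was run as well. Library index and group cannot be told apart, since each group had its own index. Replicates differed by far more than sampling noise (chi-square per degree of freedom 22.0 to 65.2).

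Exon lengths and positions came from GENCODE M21 (GRCm38, the same assembly as mm10). Alternatives were DESeq2 1.42.0, limma-voom (limma 3.58.1), other scalings and filters, the block, a length and GC offset (robust loess, 87.8% of tested genes) and leaving out each library. Named genes are the 6 channel genes, all related genes, the largest rise, largest fall and most abundant gene of the other lists, and the 2 nearest patterns; other genes named were chosen after their values were seen. A gene that the rule takes is not reported here. The channel genes and lists were chosen with earlier results of these data known.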

Additional observations from a re-analysis of the deposited data

How the results depend on the processing

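Depth was not the limit for the 6 channel genes, which had 272 to 15270 reads in every library; for Kcnmb1, Kcnmb3, Kcnn4, Lrrc26 and Lrrc52 it was. Of the 16 alternatives, Kcnn3 kept its call in 15 and Kcnt1 in 13, and Kcnn2 and Kcnmb4 were called in 0. Kcnn1 was called higher in 1, and Kcnma1 was called in 6, always lower. With the length and GC offset, the log2 fold changes were -0.38 for Kcnn3, -0.38 for Kcnt1 and 0.15 for Kcnma1, and with the replicate block added -0.38 for Kcnt1 (adjusted p = 0.051) and 0.16 for Kcnma1. Kcnma1 was called with DESeq2 (-0.27), limma-voom (-0.25), RLE size factors (-0.28), at least 1 CPM in 3 libraries (-0.30), without IP replicate 3 (-0.30) and with the replicate block (-0.25). The block changed no other call among the 6 genes and the genes of the 4 lists. Leaving out 1 library gave -0.83 to -0.53 for Kcnn3, -0.61 to -0.40 for Kcnt1, -0.30 to -0.16 for Kcnma1 and 0.37 to 0.72 for Kcnn1, with 1 to 3 of the 6 genes lower and 0 to 1 higher.

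Of the 6 genes, 0 were lower with the offset and 1 with offset and block. In the same 2 settings 3 calcium genes rose, 3 sodium entry genes rose and 0 fell. Among all genes, leaving out 1 library gave 2673 to 3418 called higher and 3109 to 4095 called lower, of 16907 to 17209 tested. Counts under the other settings stand here without the share of all genes called in that setting. They are not read against a background. Related genes lower numbered 2 with DESeq2 and with no filter, and 1 to 2 without 1 library, where 0 to 1 rose; 0 to 1 sodium entry genes fell. The offset also turned Itpr1 (0.20, and 0.21 with the block), Trim66 (0.053, and 0.054 with the block), Apbb2 (0.034, and 0.035 with the block) and Lrrc26 (-0.11). Leaving out 1 library turned Lrrc26 (range -0.015 to 1.03), Lrrc38 (-0.92 to 0.070) and Zfp874b (0.0071 without IP replicate 1). Adding 1 read in place of 0.5 turned no gene ratio. Pairing by lane (replicate block) cannot move the mean differences of these ratios, since each lane holds both groups, so it was no check on them. They were 0.63 for Kcnn1 to Kcnn2, 1.18 for Kcnn1 to Kcnn3, 0.55 for Kcnn2 to Kcnn3, 0.09 for Kcnmb4 to Kcnma1 and -0.28 for Kcnt1 to Kcnma1. The causes of the changes between settings were not tested.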
